A study of Rattus norvegicus with 24 samples.

Results

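Cholesterol and fatty acid synthesis in the rat left ventricle was followed through 29 listed genes: the enzymes of both pathways and the proteins that control them. The genes were looked up by symbol among the 22517 probes of the array, and 24 of them had a probe under the listed or an older symbol. Scd was represented by Scd1 and Scd2, which gave 25 probes. Of these, 21 probes for 20 genes were detected (detection p-value under 0.05) on at least 6 of the 24 arrays and entered the tests, out of 10391 genes tested in all. Lss, Mvk, Fasn, Acacb and Elovl1 were not analysed here, since no probe carried these symbols. Srebf2 and Acaca were detected on 0 arrays, and Elovl5 and Elovl6 on 1 array each, so these 4 genes have only an upper bound at the background of the array.

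Sterol regulatory element binding proteins (SREBPs) are membrane-bound transcription factors of the endoplasmic reticulum. When membrane sterol is low, the escort protein Scap carries them to the Golgi, where proteases release the active factor; when sterol is plentiful, Insig1 and Insig2 hold Scap back. SREBP-2 mainly drives genes of cholesterol synthesis and uptake, and SREBP-1c, a product of Srebf1, mainly drives fatty acid synthesis and desaturation in response to insulin and liver X receptors, with polyunsaturated fatty acids acting against it. The heart takes up most of its fatty acids from the blood and makes little of its own.

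The tissue was left ventricle of male Wistar rats of 300 to 350 g. Rats underwent a sham operation or a ligation of the left coronary artery meant to impair cardiac function, and were then given normal rodent chow or a chow in which 60% of the calories came from fat (palmitic acid 25%, stearic acid 33% and oleic acid 33%). The 4 groups (sham on chow, sham on saturated fat, ligated on chow, ligated on saturated fat) held 6 animals each, with 1 array per animal. Procedures fell 3 to 6 h into the dark phase. The sources used here state neither the length of feeding nor the part of the ligated ventricle that was sampled. The question that the diets pose for these genes is whether SREBP targets respond in the heart to dietary saturated fat.

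Promoters are shown for the genes whose levels moved together from animal to animal, as far as RefSeq's promoter table for the GRCr8 assembly held them: Idi1, Fads1 and Dhcr7, with Hmgcs1, which was in 3 of the 6 pairs that followed. These genes were picked after their values were seen. Each window runs from 250 bases before to 50 bases after the annotated start of the gene, on the strand of the gene. Capitals mark CCAAT boxes, read as CCAAT on either strand, a motif bound by the SREBP partner NF-Y.
Idi1, chr17:66547475-66547774, minus strand: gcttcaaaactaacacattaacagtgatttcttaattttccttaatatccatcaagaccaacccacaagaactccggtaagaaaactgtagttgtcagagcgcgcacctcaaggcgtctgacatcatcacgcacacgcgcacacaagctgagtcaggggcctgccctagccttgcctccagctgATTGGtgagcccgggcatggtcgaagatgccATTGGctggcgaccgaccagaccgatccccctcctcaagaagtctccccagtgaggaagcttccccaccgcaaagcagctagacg
Fads1, chr1:216252442-216252741, plus strand: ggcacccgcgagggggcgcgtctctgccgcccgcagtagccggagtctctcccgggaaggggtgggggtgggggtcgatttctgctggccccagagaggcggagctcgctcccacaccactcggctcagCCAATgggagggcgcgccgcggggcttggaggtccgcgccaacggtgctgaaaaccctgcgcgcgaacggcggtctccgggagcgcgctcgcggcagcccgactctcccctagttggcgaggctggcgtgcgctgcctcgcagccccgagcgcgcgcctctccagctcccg
Dhcr7, chr1:208444184-208444483, plus strand: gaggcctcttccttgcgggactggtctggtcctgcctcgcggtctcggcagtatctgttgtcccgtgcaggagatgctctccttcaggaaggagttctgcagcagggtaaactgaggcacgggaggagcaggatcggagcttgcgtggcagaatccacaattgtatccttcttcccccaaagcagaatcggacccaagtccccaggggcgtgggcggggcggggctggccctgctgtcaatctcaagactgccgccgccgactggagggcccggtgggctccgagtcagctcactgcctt
Hmgcs1, chr2:53382054-53382353, plus strand: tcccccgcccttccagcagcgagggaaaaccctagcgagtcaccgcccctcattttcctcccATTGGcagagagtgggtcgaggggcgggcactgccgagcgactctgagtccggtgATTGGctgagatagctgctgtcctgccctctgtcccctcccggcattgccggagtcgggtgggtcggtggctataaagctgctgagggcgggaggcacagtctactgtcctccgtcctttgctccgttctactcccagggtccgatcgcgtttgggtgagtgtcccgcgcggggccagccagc
The Idi1 window held 2 CCAAT boxes, at -66 and -35 from the start, the Hmgcs1 window 2, at -188 and -133, the Fads1 window 1, at -121, and the Dhcr7 window 0. The windows of Me1 and Fads2, the pair that ranked next, held 0 CCAAT boxes and are not printed. Of the 30 names looked up (Scd and Scd2 apart), 23 had a promoter in the table. A CCAAT box stood in 17 of these 23 (73.9%), against 37.5% of all 33469 promoters. For each motif a member counted if any of its promoters held it, while the background was counted by promoter. The shares are therefore not strictly alike. The GC box GGGCGG stood in 15 of 23 (65.2%), against 33.1% of all promoters. The E-box CACGTG stood in 3 (Insig1, Elovl5 and Scap; 13%), against 6.42%. The sterol element spelled TCACNCCAC stood in 0 of 23, against 1.12%, which says only that these letters were not in these windows. Every motif was searched on both strands, and no CCAAT box shared a base with a GC box or E-box in these promoters. The matches describe the letters and are not evidence of binding.

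Between 8884 and 10475 probes were detected per array. By background signal there were 12 high arrays (132.2 to 148.5 intensity units) and 12 low ones (77.1 to 87.5), and the high class held 2 sham chow arrays, 3 sham fat arrays, 2 ligated chow arrays and 5 ligated fat arrays. The labels name no batch; the classes come from the signals. Of 11 cardiomyocyte markers 10 passed the filter, each detected on 24 arrays. Among adipocyte markers Lep and Plin1 were detected on 0 arrays and Adipoq on 3, while Fabp4, Cfd, Lipe and Aqp7 were detected on 24. These are bulk samples, so fewer cells of a type and less RNA per cell cannot be told apart.

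Levels are log2 normalized signals, and levels of different probes are not compared with each other. Hmgcs1, which joins acetoacetyl-CoA and acetyl-CoA at the head of the mevalonate pathway, ranged from 11.15 through a median of 11.59 to 11.84 in sham hearts on chow. On saturated fat the sham hearts ran from 11.22 through 11.34 to 11.90. Ligated hearts ran from 11.42 through 11.58 to 11.83 on chow and from 11.29 through 11.40 to 11.93 on fat. All 4 groups overlapped, and the range over all 24 animals was only 0.78.

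Of the next mevalonate steps, Pmvk, which phosphorylates phosphomevalonate, lay between 7.09 and 8.21. Mvd, the decarboxylase that makes isopentenyl diphosphate, ran from 8.01 through 8.49 to 8.68 in sham chow hearts and from 8.16 through 8.23 to 8.41 in sham fat hearts. In ligated hearts Mvd ran from 8.16 through 8.48 to 8.88 on chow and from 7.79 through 8.18 to 8.47 on fat. The fat groups sat in the lower range of the chow groups and overlapped them. Idi1, the isomerase that turns isopentenyl into dimethylallyl diphosphate, ranged widely in every group, from 6.41 to 7.45, 6.40 to 7.56, 6.38 to 7.30 and 6.51 to 7.28 in the order of groups above. Fdps, which makes farnesyl diphosphate, had an SD of 0.08, 0.16 and 0.09 in the sham chow, sham fat and ligated fat hearts and of 0.51 in the ligated chow hearts, where 1 animal stood at 7.79. Fdft1, squalene synthase, lay between 8.79 and 9.79.

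In the sterol part of the pathway, Sqle, which oxidizes squalene, ran from 6.16 through 6.75 to 7.18 in sham chow hearts and from 6.24 through 6.46 to 7.12 in sham fat hearts. In ligated hearts Sqle ran from 6.51 through 7.00 to 7.25 on chow and from 6.37 through 6.91 to 7.25 on fat. Dhcr7, which completes cholesterol from 7-dehydrocholesterol, ran from 6.42 to 7.15 and 6.61 to 7.45 in sham hearts on chow and fat, and from 6.57 to 7.59 and 6.46 to 7.70 in ligated hearts. Msmo1, the sterol methyl oxidase listed under its older name Sc4mol, lay between 6.61 and 7.61, and Nsdhl, which acts beside it, between 6.70 and 7.51. Stard4, a carrier of cholesterol, was detected on 16 arrays (3, 5, 4 and 4 of the 6 in the 4 groups), with values from 5.67 to 6.45.

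Among the fatty acid genes, Acly, which makes cytosolic acetyl-CoA from citrate, ran from 8.88 through 9.06 to 9.28 in sham chow hearts and from 9.16 through 9.25 to 9.57 in sham fat hearts. Ligated hearts ran from 8.92 through 9.25 to 9.51 on chow and from 9.00 through 9.19 to 9.49 on fat. The sham chow hearts were the lowest group, and they still overlapped the sham fat hearts. Me1, malic enzyme, a source of cytosolic NADPH, lay between 7.79 and 8.73.

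The stearoyl-CoA desaturases insert the first double bond into saturated acyl chains, and their 2 probes behaved unlike each other. Scd1 spread over 3.24 log2 units, from 5.40 to 8.64, with a within-group SD of 0.97, the widest of the members tested. It was detected on 5 of 6 sham chow arrays and on 3 of 6 in each other group. The medians were 6.35 and 6.66 in sham hearts on chow and fat, and 6.05 and 5.95 in ligated hearts. Values above 7 came from sham animals on both diets and from both ligated groups. Scd2 was detected on all 24 arrays. It ran from 8.90 through 9.09 to 9.57 in sham chow hearts and from 9.01 through 9.25 to 9.63 in sham fat hearts. Ligated hearts ran from 9.18 through 9.37 to 9.86 on chow and from 8.94 through 9.58 to 10.02 on fat.

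Fads1 and Fads2, the delta-5 and delta-6 desaturases, make long polyunsaturated fatty acids from dietary precursors. Fads1 ran from 8.09 through 8.29 to 8.85 in sham chow hearts and from 8.06 through 8.37 to 8.81 in sham fat hearts. In ligated hearts it ran from 8.56 through 8.71 to 8.99 on chow and from 8.14 through 8.63 to 9.19 on fat. The ligated medians were above the sham medians, and the ranges overlapped. Fads2 was detected on 19 arrays and lay between 5.63 and 6.90.

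Of the control genes, Srebf1 ran from 7.70 through 7.89 to 8.40 and from 7.49 through 7.85 to 8.35 in sham hearts on chow and fat. Its ligated values ran from 7.28 through 7.80 to 7.89 and from 7.72 through 7.88 to 8.16. Insig1, itself a target of SREBP and so a readout of the active factor, had group medians of 8.55, 8.43, 8.39 and 8.46 between extremes of 7.97 and 9.04. Scap stayed between 10.28 and 10.98. Insig2 stayed between 11.33 and 11.85, the narrowest range among the members tested.

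**Figure D1:**
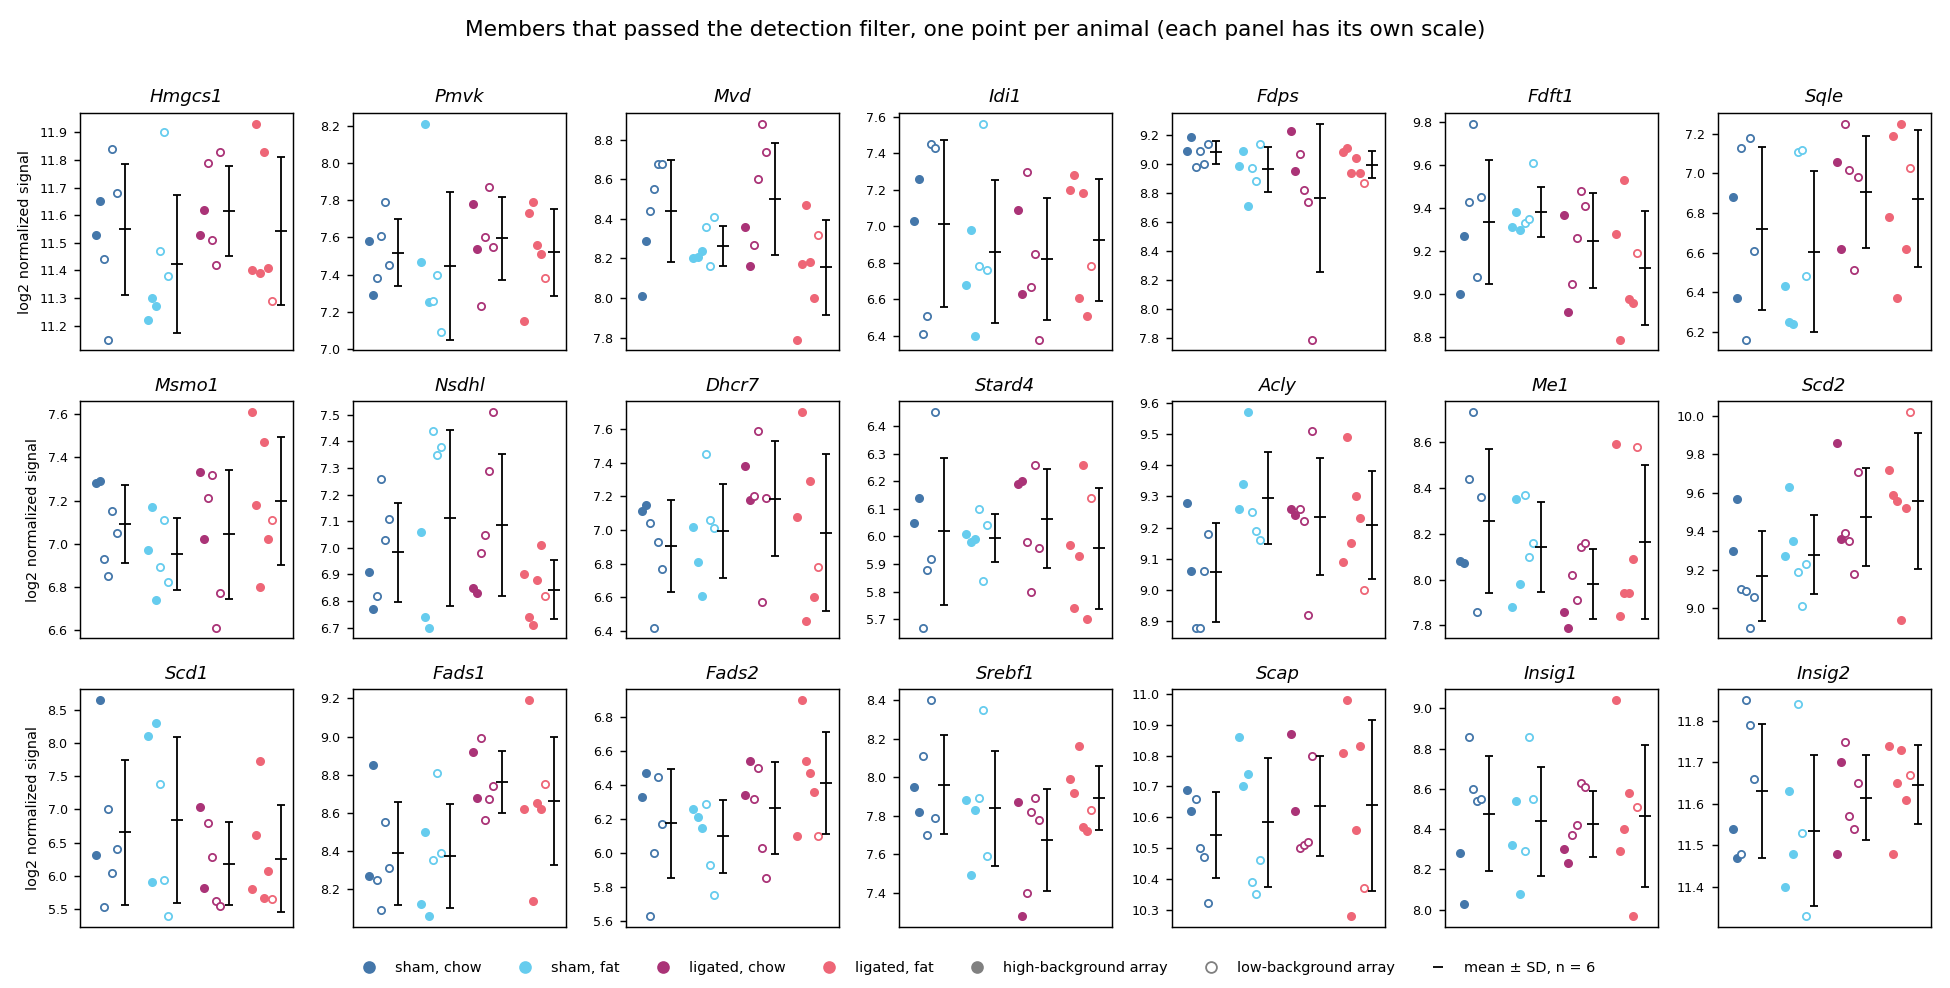
Log2 normalized signal of the 21 member probes that passed the detection filter, 1 point per animal (filled on high-background arrays, open on low-background arrays), with the mean and SD of each group of 6 beside its points and a scale of its own per panel. In every panel the diet groups overlap, and Scd1 spans 3.24 log2 units, more than any other member.

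Whether dietary saturated fat moved these genes was asked first in sham hearts, as fat minus chow. No member passed an adjusted p of 0.05 in limma (0 of 21), where 0.0192% of all genes tested did. At an unadjusted p under 0.05 there was 1 member, against 5.97% of all genes, which is near that background. It was Acly, 0.24 higher on fat (SE 0.10, 95% interval 0.02 to 0.45, adjusted p = 0.786), with 6 of 6 fat-fed animals above the chow mean. The 21 differences ran from -0.18 for Mvd to 0.24 for Acly, with a median of -0.07 against 0.002 over all genes. Lower values were found in 14 of the 21 members, among them 8 of 11 genes of cholesterol synthesis and transport (median -0.12). With arrays scaled by their median in place of quantiles 11 of the 21 were higher. The median of all genes then stood at 0.070 and that of the members at 0.00, so the members still lay below all genes. With an index of clock output genes as a covariate, 11 of the 21 were higher as well (median 0.03).

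In ligated hearts the same contrast again called 0 of 21 members, where 0.00962% of all genes were called. At an unadjusted p under 0.05 there was 1 member, against 9.64% of all genes. It was Mvd, 0.35 lower on fat (difference -0.35, SE 0.13, 95% interval -0.62 to -0.08, adjusted p = 0.503), with 6 of 6 fat-fed animals below the chow mean. With the background class of the array as a block the difference was -0.21, and 5 of 6 ligated fat arrays were of the high class. The members' median was 0.00, against -0.014 over all genes, and 10 of 21 were higher. Under median scaling the median of all genes stood at 0.157 here and that of the members at 0.19.

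Averaged over both surgeries, the diet contrast rests on all 24 animals and is the most precise. It called 0 of 21 members, where 0.0577% of all genes were called, and 1 member at an unadjusted p under 0.05, against 9.22% of all genes. Mvd was again that member, at -0.26 (SE 0.09, 95% interval -0.45 to -0.07, adjusted p = 0.5). Within the low-background arrays the value was -0.29 and within the high-background arrays -0.04; the low class holds 1 ligated fat array, on which its diet value in ligated hearts rests. Of the synthesis enzymes, Hmgcs1 differed by -0.10 (95% interval -0.29 to 0.09) and Sqle by -0.07 (-0.36 to 0.21). Among readouts of the SREBP system, Insig1 differed by 0.00 (-0.22 to 0.23) and Srebf1 by 0.05 (-0.16 to 0.26). The desaturases Scd2, Fads1 and Fads2 differed by 0.10 (-0.12 to 0.32), -0.06 (-0.28 to 0.16) and 0.03 (-0.19 to 0.26).

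For 20 of the 21 members the whole 95% interval of the averaged diet difference lay within 0.5 log2 units of 0, the lowest bound being -0.45 for Mvd and the highest 0.32 for Scd2. Scd1 was the exception, at 0.13 with an interval from -0.61 to 0.87. In sham hearts alone 18 of the other 20 members met that limit, and in ligated hearts alone 14 of 20. Stard4 and Fads2 count among these 20 but lay near background, detected on 16 and 19 arrays. The offset of 16 shrinks log2 differences there, so their intervals do not limit the change in RNA. Sqle, Idi1, Dhcr7, Msmo1 and Nsdhl were detected on all 24 arrays, with lowest values of 6.16, 6.38, 6.42, 6.61 and 6.70. The undetected Acaca lay between 5.26 and 5.77. Differences of such dim genes are shrunk too, by an amount not measured here, so their intervals limit the change in signal and not in RNA. The arm of cholesterol synthesis was higher on fat in 2 of 11 genes (median -0.06), the fatty acid arm in 5 of 6 probes (median 0.07) and the control genes in 3 of 4 (median 0.01), with 48.3% of all genes higher; under median scaling 18 of 21 members were higher (median 0.11), and the median of all genes stood at 0.114. No member of any of these 3 arms passed the test.

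Genes driven by PPAR-alpha, the fatty acid-sensing nuclear receptor, were read on the same arrays. This list was chosen with earlier results of these data known, so a rise on fat there is no independent check on the members. Of 20 such genes 19 passed the filter, 18 of them were higher on fat in the averaged contrast, and 4 were called, where 0.0577% of all genes were; 3 of the 4 are described. The median of the 19 was 0.21, against -0.005 over all genes. Angptl4, an inhibitor of lipoprotein lipase, rose by 2.06 (SE 0.24, adjusted p = 9.54e-05). Acot1, an acyl-CoA thioesterase, rose by 1.50 (SE 0.20, adjusted p = 0.000553), and Pdk4, which restrains glucose oxidation, by 0.96 (SE 0.16, adjusted p = 0.00721).

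**Figure D2:**
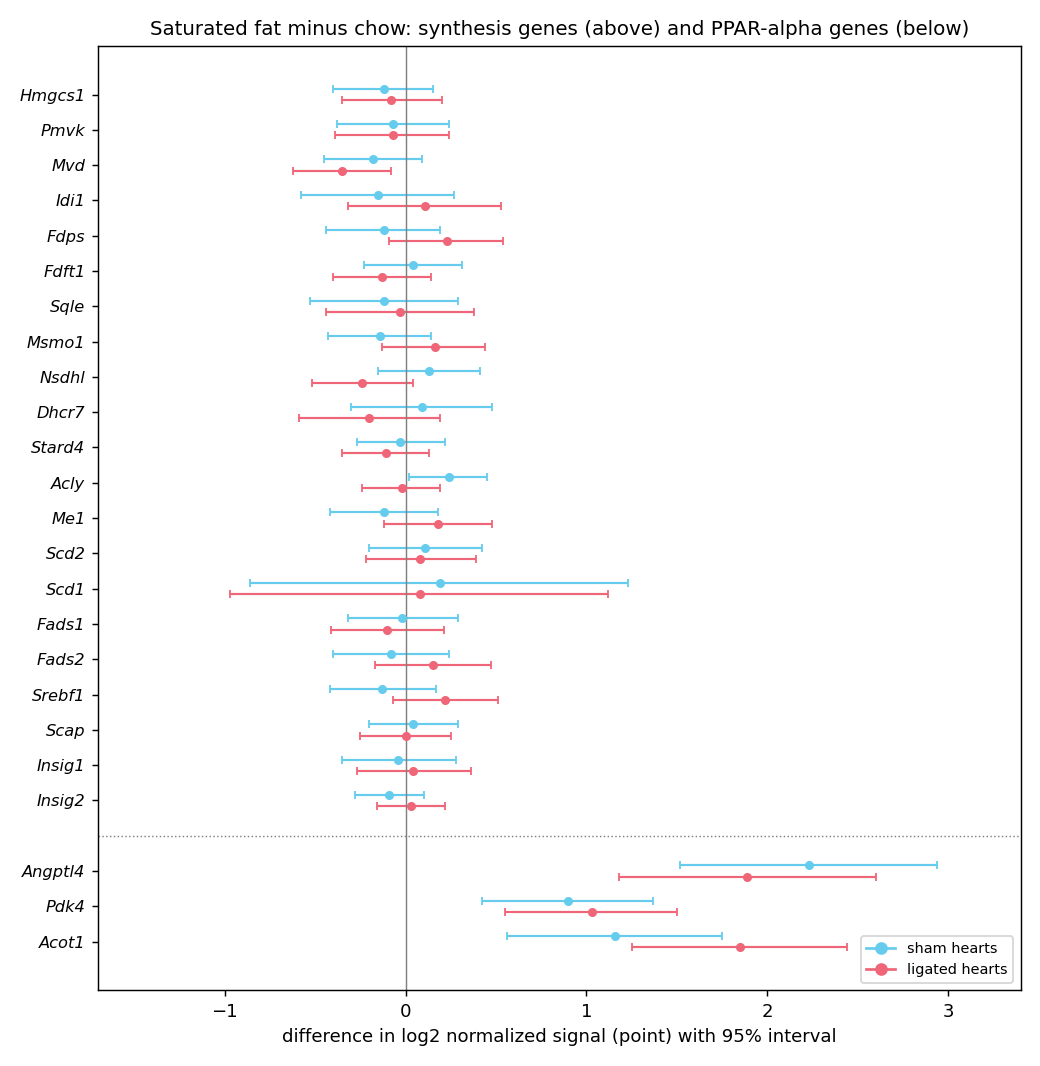
Fat minus chow in log2 normalized signal with 95% intervals, in sham hearts (blue) and ligated hearts (red), for the 21 member probes above the dotted line and 3 PPAR-alpha genes below it. The members lie between -0.35 and 0.24, and the 3 PPAR-alpha genes, shown because they were called, between 0.90 and 2.23, while the medians of all 19 kept PPAR-alpha genes were 0.17 in sham and 0.20 in ligated hearts.

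The interaction asked whether the diet difference itself depended on ligation. It called 0 of 21 members and 0% of all genes. At an unadjusted p under 0.05 there were 0 members, against 5.42% of all genes. Nsdhl had the smallest p among the members: its diet difference was 0.13 in sham and -0.24 in ligated hearts, an interaction of -0.37 (SE 0.19, 95% interval -0.76 to 0.03, adjusted p = 0.878). Srebf1 ran the opposite way, with -0.13 in sham and 0.22 in ligated hearts (interaction 0.35, 95% interval -0.07 to 0.76, adjusted p = 0.88). In the high and low background classes alone the interaction was 0.02 and -0.72 for Nsdhl, and 0.49 and 0.17 for Srebf1. The low class holds 1 ligated fat array. With the class as a block the values were -0.26 for Nsdhl and 0.39 for Srebf1. The median 95% interval for an interaction reached 0.43 to each side, so moderate differences between the surgeries were not detectable with 6 animals a group.

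What ligation did to these genes was asked on each diet. On chow, 0 of 21 members were called, where 0.472% of all genes were, and 2 passed at an unadjusted p under 0.05 (9.52%), against 10.4% of all genes. Fads1 was 0.37 higher in ligated hearts (SE 0.15, 95% interval 0.06 to 0.68, adjusted p = 0.347), with 6 of 6 ligated animals above the sham mean. Fdps was at -0.32 (SE 0.15, adjusted p = 0.474), and its mean carried the low animal named above. Without that animal the difference was -0.12. On saturated fat, 0 of 21 members were called, where 0.885% of all genes were, and 0 passed at an unadjusted p under 0.05, against 11.7% of all genes. There Fads1 was at 0.29 (95% interval -0.02 to 0.60), Fads2 at 0.32 (95% interval 0.00 to 0.64) and Scd2 at 0.28 (95% interval -0.03 to 0.59).

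Averaged over diets, a contrast added after values were seen, ligation called 0 of 21 members, where 3.14% of all genes were called, and 2 members at an unadjusted p under 0.05 (9.52%), against 15.5% of all genes. Fads1 was 0.33 higher in ligated hearts (SE 0.11, 95% interval 0.11 to 0.55, adjusted p = 0.0946), and the value was 0.33 in each background class taken alone, the low class holding 1 ligated fat array. Scd2 was 0.29 higher (SE 0.11, 95% interval 0.07 to 0.51, adjusted p = 0.153), with 0.11 in the high class of arrays and 0.62 in the low class, with the same limit. Scd1 was at -0.53, with an interval from -1.27 to 0.21. Fads1 passed the adjusted threshold with array weights (0.37, adjusted p = 0.0187), without animal 40 of the sham chow group (adjusted p = 0.0413) or without animal 18 of the ligated fat group (adjusted p = 0.0242). Scd2 passed it without animal 25 of the ligated fat group (0.35, adjusted p = 0.0392). Animal 40 had the highest Fads1 value of the sham hearts (8.85), and animal 18 the lowest of the ligated hearts (8.14). Animal 25 had the lowest Scd2 value of the ligated hearts (8.94). Leaving out such an animal raises the difference by itself, so these passes add no support. In the arm of cholesterol synthesis 6 of 11 genes were higher (median 0.00), Sqle being at 0.23 (95% interval -0.06 to 0.52) and Fdft1 at -0.17 (95% interval -0.37 to 0.02).

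Markers of non-muscle cells were read in the same contrast, ligation averaged over diets, where 46.1% of all genes were higher and 3.14% called. All 8 macrophage markers that passed the filter were higher in ligated hearts (median 0.43), and 3 were called, the complement chains C1qa, C1qb and C1qc. The summed level of the 8 markers had group medians of 5713 and 4801 in sham hearts on chow and fat, and of 7078 and 7559 in ligated hearts. All 9 fibroblast markers were higher (median 0.42), with Cd248 and Pi16 called. The endothelial markers were higher in 4 of 4 (median 0.04), with 1 called. The adipocyte markers were lower in 5 of 6 (median -0.24), with 0 called. The erythroid markers were higher in 2 of 4 (median 0.04), with 0 called. The hepatocyte markers were higher in 1 of 2 (median -0.93), with 1 called lower. The part of these cells in the Fads1 and Scd2 values was not tested.

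**Figure D3:**
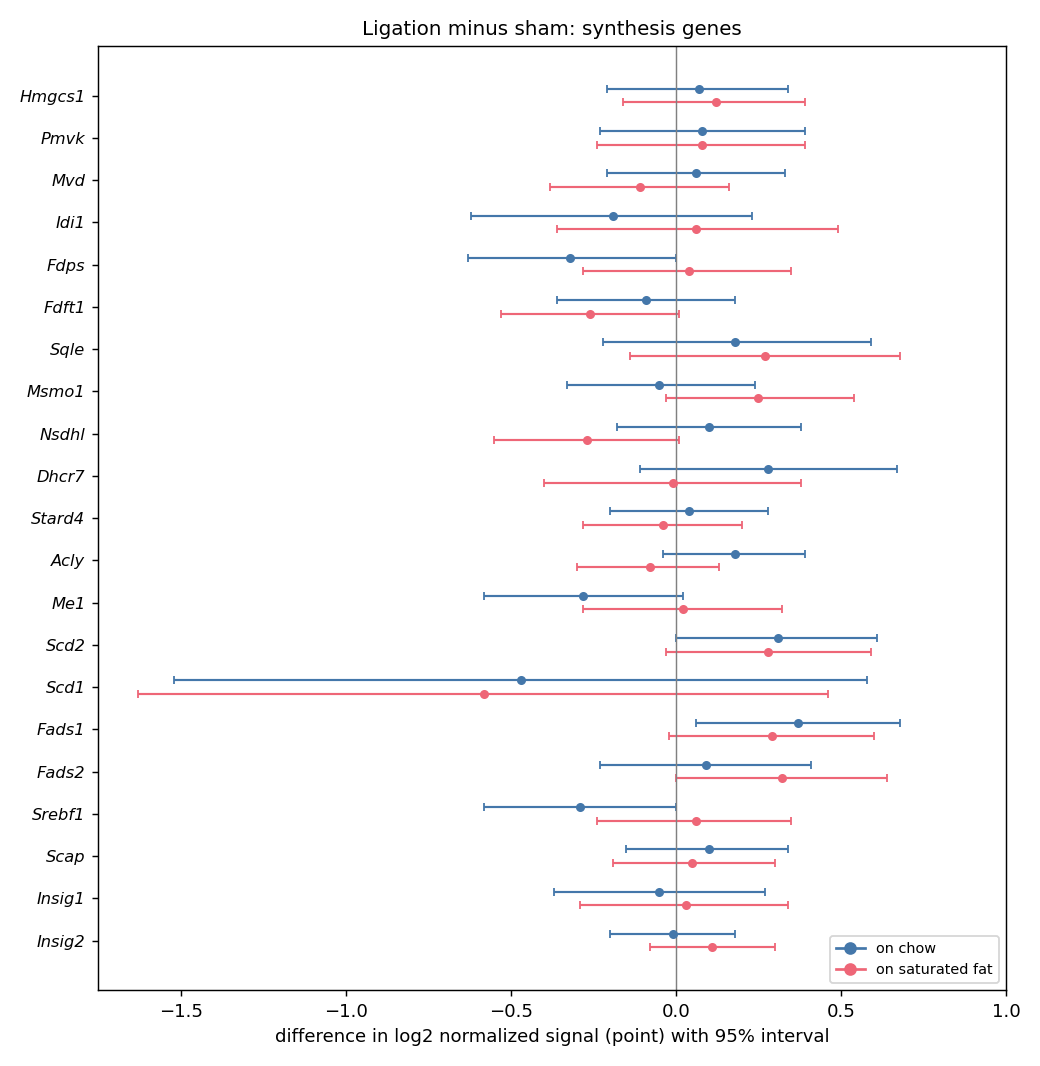
Ligation minus sham in log2 normalized signal with 95% intervals, on chow (dark blue) and on saturated fat (red), for the 21 member probes. Fads1 lies at 0.37 and 0.29 and Scd2 at 0.31 and 0.28, while Scd1 has the widest intervals.

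Variation from animal to animal within a group was used to ask whether members moved together apart from diet and surgery. Deviations from the group mean were correlated over the 24 animals for all 210 pairs, with p from 100000 permutations of the animals within groups and Benjamini-Hochberg adjustment over the 210 pairs. Idi1 and Fads1 rose and fell together (Pearson's r = 0.71, permutation p = 0.00017, adjusted p = 0.0304; Spearman's rho = 0.73, permutation p = 0.00023, adjusted p = 0.0483). The r was 0.74 in the high class of arrays and 0.77 in the low class. It was 0.66 without the 2 animals most distant in Idi1, extremes of Fads1 being kept. Sqle and Dhcr7 did so as well (r = 0.69, permutation p = 0.00029, adjusted p = 0.0304), with rho = 0.68 (permutation p = 0.00066, adjusted p = 0.0511). For them r was 0.80 and 0.75 within the high and low classes. It was 0.68 without the 2 animals most distant in Sqle, chosen without regard to Dhcr7. These 2 pairs were the only ones past the threshold.

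The next pairs missed it at an adjusted p of 0.0588. Hmgcs1 was among them with Fads1 (r = 0.67), Idi1 (r = 0.67) and Sqle (r = 0.65), and Idi1 with Msmo1 (r = 0.61). Fads2 was there with negative values, against Me1 (r = -0.69) and Insig1 (r = -0.64). Without the 2 animals most distant in Hmgcs1, its r with Fads1, Idi1 and Sqle was 0.50, 0.55 and 0.57. Leaving out the 2 most distant in Idi1 gave 0.61 for Idi1 with Msmo1. The same step for Me1 gave -0.67 with Fads2, and for Fads2 it gave -0.57 with Insig1. Over all 210 pairs the median r was 0.00, the same as over all 53981245 pairs of genes, and r was above 0.5 in 6.19% of member pairs against 4.79% of all pairs. Among the 55 pairs within the arm of cholesterol synthesis it was above 0.5 in 12.7%, and the median was 0.01. Mvd ran against Msmo1 (r = -0.63, adjusted p = 0.088).

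**Figure D4:**
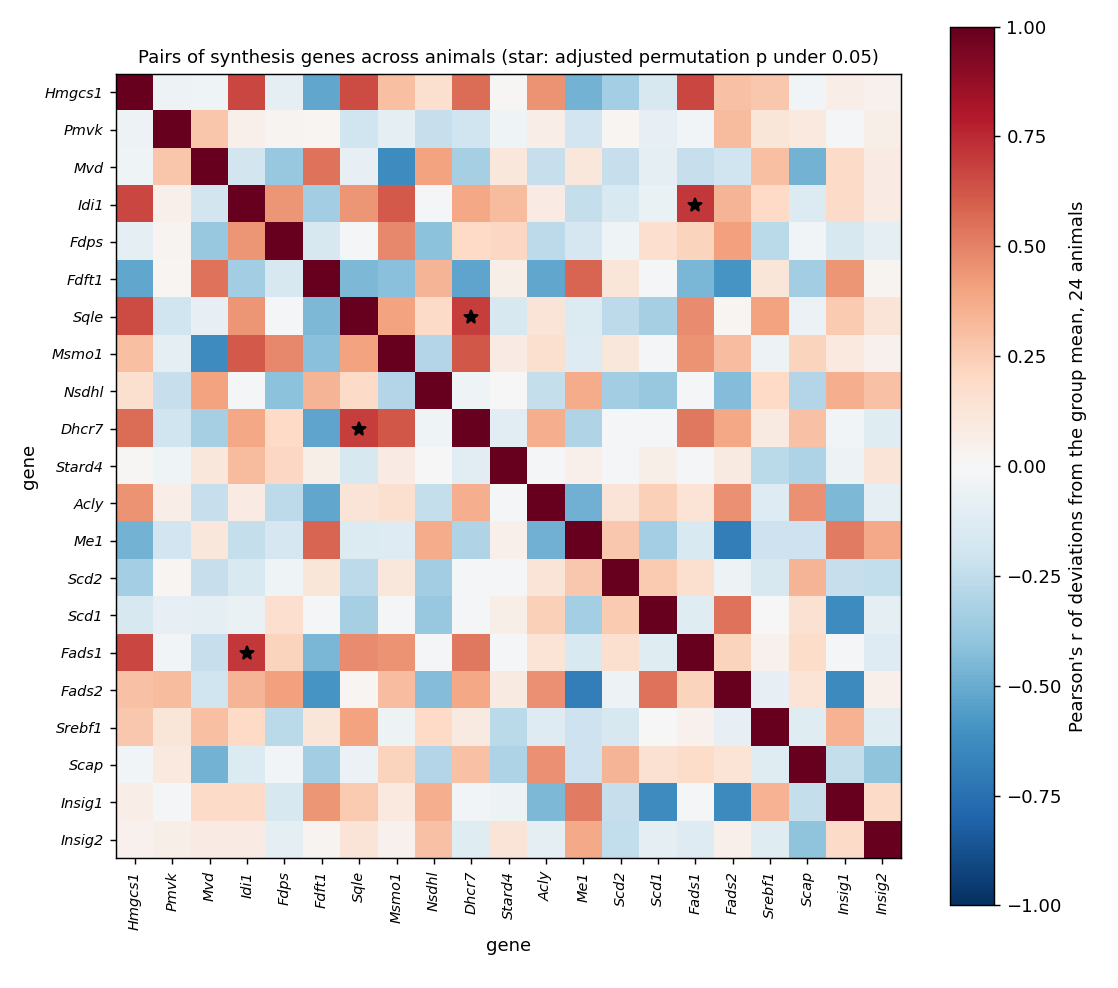
Pearson's r between the members' deviations from their group means over 24 animals, red for positive and blue for negative, with genes in the order of the pathways on both axes and a star where the adjusted permutation p is under 0.05. The starred pairs are Idi1 with Fads1 (r = 0.71) and Sqle with Dhcr7 (r = 0.69).

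The same deviations were set against 4 indices per animal. The first was the mean of the clock genes Tef, Per1 and Per2. The others were the means of the adipocyte, macrophage and fibroblast markers that passed the filter. The adipocyte index held 6 of 12 listed markers, without Adipoq, Lep and Plin1, so it is a loose measure of adipocytes. None of the 84 relations passed adjustment. The 3 smallest p-values belonged to Scd1 with the adipocyte index (r = 0.63, permutation p = 0.00194, adjusted p = 0.106), Hmgcs1 with the clock index (r = -0.61, permutation p = 0.00299, adjusted p = 0.106) and Sqle with the clock index (r = -0.59, permutation p = 0.00379, adjusted p = 0.106). Without the 2 animals most distant in the member, chosen without regard to the index, these r were 0.46, -0.54 and -0.43. The clock index had group means of -0.43 and 0.42 in sham hearts on chow and fat and of 0.19 and -0.18 in ligated hearts. The index was thus partly confounded with diet in sham hearts. With it as a covariate, the diet difference in sham hearts changed sign for several members, in both directions. It rose from -0.12 to 0.09 for Hmgcs1, from -0.12 to 0.20 for Sqle and from -0.15 to 0.16 for Idi1. Rises were also seen from -0.14 to 0.03 for Msmo1, from -0.02 to 0.16 for Fads1 and from -0.04 to 0.05 for Insig1. The difference fell from 0.04 to -0.15 for Fdft1 and from 0.19 to -0.29 for Scd1. None of these passed the test.

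Genes around the members were read from further lists. For the averaged diet contrast 0.0577% of all genes were called and 48.3% were higher. Of 12 other genes of cholesterol synthesis 8 passed the filter, and for that contrast 0 were called, 5 were higher and 3 lower. Of 25 other fatty acid synthesis genes 18 passed, with 0 called, 10 higher and 8 lower; of 16 other genes of SREBP processing 8 passed, with 0 called, 5 higher and 3 lower. Of 19 genes of cholesterol uptake and export and liver X receptor action 12 passed, with 0 called, 8 higher and 4 lower. The smallest p-values in these 4 lists belonged to Npc1 at 0.29 and Lipa at 0.41, which release cholesterol from lysosomes (adjusted p = 0.503 and 0.513), and Gpam at 0.23, which starts glycerolipid synthesis (adjusted p = 0.528). With ligation, Lrp1, a receptor that takes up lipoprotein remnants, rose by 0.56 on fat (SE 0.13, adjusted p = 0.0319). It was the 1 gene called there among the 12 of its list, where 0.885% of all genes were called. Averaged over diets, ligation called Lrp1 (0.42, adjusted p = 0.00734) and 1 of the 18 other fatty acid synthesis genes, of which 7 passed at an unadjusted p under 0.05. Over all genes 3.14% were called in this contrast, and 15.5% passed at that unadjusted p.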

How the data were processed

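Total RNA of 24 left ventricles was hybridised to rat bead arrays of 50-base probes, 1 colour (Cy3), 1 array per animal. The authors deposited the mean intensity of each probe on a linear scale, and per the file headers a detection p-value beside it; the submitters' processing notes name BeadStudio 3. A second table of intensity values normalized by the authors, by a method not given in the sources used here, served as an alternative.

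From the deposited intensities, limma 3.58.1 in R 4.3.3 corrected the background with neqc (negative controls inferred from the detection p-values, offset 16), normalized by quantiles and took log2. Probes with a detection p under 0.05 on at least 6 of 24 arrays were kept (10540 of 22517), and the brightest probe stood for each of 138 genes with several, giving 10391 genes. Genes were named by the accession, symbol or synonym in RefSeq, otherwise by the name in the file. A model of 4 group means (20 residual degrees of freedom) was fitted with lmFit and eBayes to all genes, with Benjamini-Hochberg adjustment over all of them. "Called" means an adjusted p under 0.05, and differences are in log2 units. Correlations used NumPy 2.4.6 in Python 3.11.15. The fit and the permutations were tested on simulated data. The members, the other lists and the rule for naming genes (every member with a probe; from other lists, called genes or the 3 smallest p-values) were chosen with earlier results of these data known. Each animal is a separate individual; the number of arrays limits the precision. Alternatives covered background correction, scaling, filtering, weights, covariates, the background class as a block and leaving out each animal. Some genes of the other lists are not reported here.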

Additional observations from a re-analysis of the deposited data

Results flagged for a closer look

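In 4 of the 84 sets of 6 animals, each set being 1 member in 1 group, the highest or lowest animal lay far from the rest for the range of its set. Chance gives such a value in about 1 in 20 sets, or 4.2 of 84. In the sham fat group Hmgcs1 stood at 11.90 in animal 12, with the next animal at 11.47. In the same group Pmvk stood at 8.21 in animal 35, with the next at 7.47, and Fdft1 at 9.61 in animal 34, with the next at 9.38. In the ligated chow group Fdps stood at 7.79 in animal 4, with the next at 8.74. These are 4 different animals.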

How the results depend on the processing

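Under the alternatives run, limma called 0 members for each diet contrast, for ligation on each diet and for the interaction. For ligation averaged over diets the count rose to 1 with array weights (Fads1, 0.37, adjusted p = 0.0187). Leaving out each animal in turn gave 0 to 1: Fads1 was called without animal 40 of the sham chow group (adjusted p = 0.0413) or animal 18 of the ligated fat group (adjusted p = 0.0242), and Scd2 without animal 25 of the ligated fat group (0.35, adjusted p = 0.0392). Each animal left out there held the value that lay most against the difference of that gene within its group. Why array weights raised the count was not tested. Over the 13 alternatives other than leaving out animals, Fads1 stayed between 0.25 and 0.37 and Scd2 between 0.11 and 0.62. With scaling by the median in place of quantiles, the median of all genes in the averaged diet contrast was 0.114, and 18 of 21 members were then higher (median 0.11). Mvd was then at -0.09. With the background class as a block Mvd was at -0.17 (unadjusted p = 0.052). No paired analysis was possible because the animal numbers in the labels are not shared between groups. Probes near background (Scd1, Stard4, Fads2) are measured on only some arrays, and genes below it could not be followed.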
